A study of Mus musculus with 16 samples.

Results

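The interleukin 1 system was measured in muscle through 10 genes: the ligands Il1a, Il1b and Il18, the receptor antagonist Il1rn, the receptor chains Il1r1, Il1r2, Il1rap and Il1rl1, the protease Casp1 and the sensor Nlrp3. Every array probe that carried 1 of these symbols in the deposited annotation was taken. This gave 19 probes of 25697, and 10 genes of 18097. The probes were taken by symbol and not by their values. The study used female mice in 4 groups of 4 arrays: spinal cord injury (SCI) made between thoracic vertebrae 12 and 13, or sham surgery without it, with either cardiotoxin (CDTX), a toxin of snake venom that injures muscle, or saline injected into the muscle. All 4 groups therefore had surgery and an injection, and whole muscle was taken at day 2. The labels call the tissue hindlimb muscle and the design text calls it hamstring. Strain and age were not given in the sources used here. By the design text, neurogenic heterotopic ossification, bone that forms in muscle after an injury of the nervous system, arises only after SCI with CDTX, so SCI+CDTX was compared with each other group. The labels state that the array SCI+CDTX 2 was excluded from the final analysis of the study. It is shown apart here, and the tests use the other 15 arrays. The labels do not say whether each array is a separate animal, so the p-values measure the spread between these samples.

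Interleukin 1 is a set of secreted alarm signals of injured and infected tissue. Il1a and Il1b encode the agonists, which bind the receptor chain encoded by Il1r1 together with the accessory chain encoded by Il1rap. Il1rn encodes a receptor antagonist that occupies the same receptor without signalling, and Il1r2 encodes a decoy receptor that binds the ligand and does not signal. Interleukin 1 beta and interleukin 18 are made as precursors, and caspase-1, activated in inflammasomes such as the one built on the sensor Nlrp3, cuts both into active cytokines. Il1rl1 encodes ST2, the receptor of the alarm signal IL-33. In muscle, macrophages and neutrophils that enter after damage are a known source of interleukin 1 beta.

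The array reports each gene through probes of 50 bases, and which probe detects signal decided what could be compared, so the probe sequences are given first. The probes on which the results of Il1b, Il1rn and Il1rl1 rest begin as follows, with the first 30 bases shown in lower case.
Il1b ILMN_2777498: atccgtgtcttcctaaagtatgggctggac
Il1rn ILMN_3072427: tgccatgtgtgctcaggatgagctgattaa
Il1rl1 ILMN_2757617: cccctattctcacccagtttgaccttgatt
The probes of the decoy receptor, of interleukin 18 and of caspase-1 are shown whole.
Il1r2 ILMN_2611000: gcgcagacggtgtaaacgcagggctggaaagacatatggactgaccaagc
Il18 ILMN_1236517: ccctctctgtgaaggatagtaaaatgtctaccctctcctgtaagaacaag
Casp1 ILMN_1247592: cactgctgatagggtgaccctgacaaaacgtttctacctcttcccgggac
The only probes of Il1a and Nlrp3 are shown because neither gave signal on any array.
Il1a ILMN_1227018: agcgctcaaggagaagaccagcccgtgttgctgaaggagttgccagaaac
Nlrp3 ILMN_1237471: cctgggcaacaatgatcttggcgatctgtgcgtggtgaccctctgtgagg
Il1rap had 6 probes, of which 3 are shifted copies of each other and share the 47 bases in capitals, so they are not separate measurements of the gene.
Il1rap ILMN_1243228: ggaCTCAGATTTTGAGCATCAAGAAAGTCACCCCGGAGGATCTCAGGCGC
Il1rap ILMN_2740464: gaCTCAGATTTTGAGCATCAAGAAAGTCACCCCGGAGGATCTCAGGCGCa
Il1rap ILMN_2740465: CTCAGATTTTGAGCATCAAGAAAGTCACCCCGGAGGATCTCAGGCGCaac
Il1rl1 has a second probe, which the annotation assigns to transcript variant 1, whereas the probe above is assigned to transcript variant 2. It is shown because, unlike the probe above, it was detected on no array.
Il1rl1 ILMN_1243504: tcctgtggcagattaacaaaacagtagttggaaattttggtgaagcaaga
The annotation lists Il1rn on chromosome 2 at 2qA3, Il1r2 and Il1rl1 on chromosome 1 at 1qB, Il1rap on chromosome 16 at 16qB2, Il18 on chromosome 9 at 9qA5.3, Casp1 on chromosome 9 at 9qA1 and Nlrp3 on chromosome 11 at 11qB1.3. It names no genome build. In the RefSeq annotation of GRCm38.p6, Il1a lies next to Il1b on chromosome 2, and Il1r2, Il1r1, Il1rl2, Il1rl1 and Il18r1 follow each other on chromosome 1.

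A probe counts as detected on an array when its detection p, the chance that a negative control bead is as bright, is under 0.05. It was kept for testing when detected on at least 3 of the 15 arrays. This left 8 of the 19 probes, 1 for each of Il1b, Il1rn, Il1r1, Il1r2, Il1rap, Il1rl1, Il18 and Casp1. The other 11 probes had raw intensities between 85.5 and 115.8, and 7 of them were detected on none of the 16 arrays. Il1a was among these 7, with raw intensities of 86.7 to 101.9, and so was Nlrp3, with 86.7 to 109.5. Neither gene can be placed in an order of groups, and no signal above background is not evidence that the transcript was absent. A second Il1rn probe, ILMN_3151270, was detected on SCI+CDTX 3 and 4 and on none of the other 14 arrays. Another Il1rn probe, ILMN_1233093, was detected on none of the 16 arrays, with raw intensities of 87.1 to 104.7. Of the Il1rl1 probes, that for transcript variant 2 was detected on 12 of 16 arrays and that for transcript variant 1 on none. A probe kept through a group where it is bright had to differ from a group where it is dark, so the share of kept probes that were called is not read as a property of the 10 genes.

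**Figure D1:**
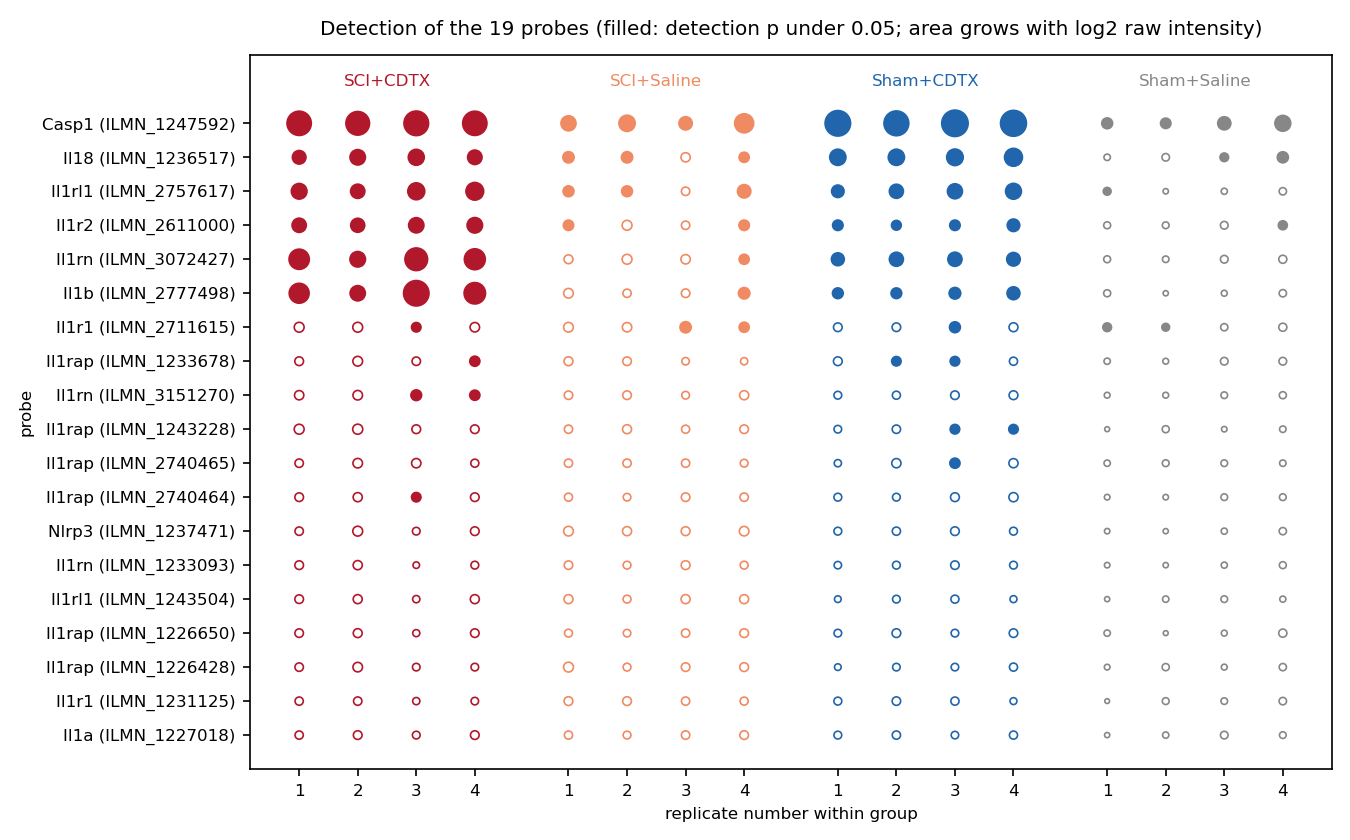
Detection of the 19 probes on the 16 arrays, with groups side by side, replicate number along the horizontal axis and 1 probe per line. A filled circle marks a detection p under 0.05 and its area grows with log2 raw intensity; Casp1 was detected on all 16 arrays, and Il1b and Il1rn on all 8 arrays of CDTX-injected muscle, on 1 SCI+Saline array and on no Sham+Saline array.

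Facts of the whole series bear on these values. Between 11114 and 13694 probes were detected per array, with a mean raw intensity of 230 to 373, which was lowest in Sham+Saline (230 to 277), and a mean of 33.3 to 38.9 beads behind each probe value. All SCI arrays were on 1 slide and all sham arrays on the other, so the effect of surgery and that of the slide cannot be told apart. Muscle fibre markers were detected for 10 of 10 genes, with a summed linear intensity of 121000 to 144000 over all 15 arrays. A score built from the differences between 2 probes of the same gene, over 2782 genes, separated arrays in a way that the labels do not describe: in Sham+CDTX it lay between 0.35 and 0.39, on SCI+CDTX 2 it was 0.28, and the remaining 11 arrays ranged from -0.27 to -0.07. The contrast of SCI+CDTX with Sham+CDTX therefore moves with this score, and the members' results there, and the counts of the gene lists and of the leading immune marker lists, are also given with the score as a covariate. That fit takes its slope mainly from SCI+CDTX, whose arrays hold 80.1% of the within-group sum of squares of the score, 59.2% from SCI+CDTX 2 alone. In whole muscle, fewer cells of a type and less RNA per cell cannot be told apart.

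Il1b, the inducible agonist, was bright in SCI+CDTX muscle and dim in the other groups. Its log2 normalized intensity was 7.3, 9.01 and 7.87 on SCI+CDTX 1, 3 and 4, and the excluded SCI+CDTX 2 read 5.91 when all 16 arrays were normalized together. On the SCI+Saline arrays it was 4.6, 4.25, 4.29 and 5.25, on the Sham+CDTX arrays 5.04, 4.83, 5.06 and 5.46, and on the Sham+Saline arrays 4.46, 4.2, 4.22 and 4.3. All 3 tested SCI+CDTX arrays lay above every array of the other groups; SCI+CDTX 2 lay above them as well, but closer to Sham+CDTX than to its own group. The raw intensities show the same picture before any normalization: 293.5, 171, 673.2 and 361.3 on SCI+CDTX 1 to 4, and at most 137.6 on any other array. Against SCI+Saline the difference was 3.46 on the log2 scale (SE 0.3, limma adjusted p = 4.62e-07), where 1 of the 4 SCI+Saline arrays detected the probe, and against Sham+CDTX it was 2.96 (SE 0.3, limma adjusted p = 1.25e-06), a 7.8-fold ratio. No Sham+Saline array detected the probe, so that ratio is a bound, at least 9.71-fold (limma adjusted p = 2.4e-08), set by the weakest signal that counted as detected on the dim arrays, or by the probe's own signal where that was brighter. With CDTX alone, Sham+CDTX exceeded Sham+Saline by at least 1.24-fold (0.8 on the log2 scale, SE 0.28, limma adjusted p = 0.0219), but the call depended on the processing. It was lost without Sham+CDTX 4 (0.66, limma adjusted p = 0.0787), with all 16 arrays (0.82, limma adjusted p = 0.122), without background correction (0.25, limma adjusted p = 0.311), with an offset of 50 (0.35, limma adjusted p = 0.221) and without the detection filter (0.8, limma adjusted p = 0.0692). The order of mean levels was SCI+CDTX (8.06 ± 0.87, SD, n = 3), Sham+CDTX (5.1 ± 0.26, n = 4), SCI+Saline (4.6 ± 0.46, n = 4) and Sham+Saline (4.3 ± 0.12, n = 4). Neighbours from Sham+CDTX to SCI+Saline (limma adjusted p = 0.148) and from SCI+Saline to Sham+Saline (limma adjusted p = 0.456) did not pass the test. SCI+Saline was called lower than Sham+CDTX under median scaling (-0.64, limma adjusted p = 0.0492) and without SCI+Saline 4 (-0.72, limma adjusted p = 0.0343). The same call was made with the score in the fit (-2.91, limma adjusted p = 0.00818). In the authors' deposited table the group means of Il1b, after their average normalization and background subtraction, were 322.4, 6.4, 22.5 and -0.8 for SCI with CDTX, SCI with saline, sham with CDTX and sham with saline. The authors' deposited table gives SCI+CDTX a p-value of 0.0235 for the contrast with Sham+Saline, 0.03596 for that with SCI+Saline and 0.05681 for that with Sham+CDTX, the last not under 0.05.

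Il1rn, the antagonist, followed Il1b in its order of groups with a narrower spread, as read by its kept probe alone. Its other probes, ILMN_3151270 and ILMN_1233093, read at most 115.8 and 104.7 raw units on any array, where the kept probe reached 431.7. Why the probes of this gene differ was not tested. The kept probe read 7.39, 8.18 and 7.73 on SCI+CDTX 1, 3 and 4 and 5.99 on SCI+CDTX 2. Sham+CDTX arrays read 5.62, 5.72, 5.74 and 5.64, SCI+Saline arrays 4.34, 4.75, 4.48 and 4.73, and Sham+Saline arrays 4.42, 4.36, 4.6 and 4.45. SCI+CDTX stood highest and Sham+CDTX next, with no overlap with any group, whereas the saline groups overlapped. The difference of SCI+CDTX was 3.2 against SCI+Saline (SE 0.17, limma adjusted p = 9.11e-10), where 1 of 4 arrays detected the probe, and 2.09 against Sham+CDTX (SE 0.17, limma adjusted p = 1.3e-07, 4.25-fold). Against Sham+Saline, where no array detected the probe, it was at least 7.93-fold. Sham+CDTX was in turn at least 1.86-fold above Sham+Saline (1.22, SE 0.16, limma adjusted p = 3.54e-06) and SCI+Saline lay below it by a difference of -1.11 (limma adjusted p = 1.13e-05). Among the saline groups the difference was 0.11 (limma adjusted p = 0.636), with a 95% interval of -0.21 to 0.44. In the authors' deposited table the Il1rn group means were 241.5, 6, 44 and 4.2.

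Il1r2, the decoy receptor, was also higher in SCI+CDTX than in each other group. It measured 5.74, 6.12 and 6.25 on SCI+CDTX 1, 3 and 4 and 5.56 on SCI+CDTX 2. Values were 4.98, 4.75, 4.26 and 4.88 in SCI+Saline, 4.96, 4.6, 4.75 and 5.34 in Sham+CDTX, and 4.43, 4.41, 4.6 and 4.83 in Sham+Saline. The 3 lower groups overlapped each other, and all 4 SCI+CDTX arrays lay above them. SCI+CDTX exceeded SCI+Saline by 1.32 (SE 0.2, limma adjusted p = 4.69e-05), Sham+CDTX by 1.13 (SE 0.2, limma adjusted p = 0.00034) and Sham+Saline by 1.47 (SE 0.2, limma adjusted p = 7.99e-06). These are ratios of 2.5, 2.18 and 2.77. CDTX without SCI gave a difference of 0.34 with a 95% interval of -0.05 to 0.73 (limma adjusted p = 0.139). In the order of means, 6.04 ± 0.27 (SD, n = 3) in SCI+CDTX was followed by 4.91, 4.72 and 4.57 in Sham+CDTX, SCI+Saline and Sham+Saline, and no neighbours among the last 3 passed the test.

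The signalling receptor chains gave little signal. Of the Il1r1 probes, ILMN_1231125 was detected on none of the 16 arrays, at 85.5 to 102.4 raw units. The kept Il1r1 probe was detected on 6 of 16 arrays, spread over all 4 groups, with log2 values from 4.35 to 5.32. Its highest array was Sham+Saline 1, and all groups overlapped. Its differences in the 6 pairwise comparisons lay between -0.29 and 0.28, with limma adjusted p of 0.269 or more, and the 95% interval for SCI+CDTX against SCI+Saline ran from -0.75 to 0.16. The kept Il1rap probe was detected on 3 arrays, SCI+CDTX 4 and Sham+CDTX 2 and 3, with log2 values from 4.18 to 4.66 on the 15 arrays. Its differences lay between -0.2 and 0.17 with limma adjusted p of 0.221 or more. The kept probes read 94.3 to 120.3 raw units for Il1r1 and 88.9 to 111.3 for Il1rap. At this brightness a change in these chains was not detectable, which does not show that they stayed level.

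Il1rl1, the IL-33 receptor, was higher with CDTX under either surgery. Arrays read 6.14, 6.58 and 6.87 in SCI+CDTX 1, 3 and 4, and 5.63 in SCI+CDTX 2. They read 5.51, 5.73, 5.97 and 6.27 in Sham+CDTX, 5.24, 5.26, 4.27 and 5.88 in SCI+Saline, and 4.83, 4.21, 4.24 and 4.3 in Sham+Saline. The CDTX groups overlapped each other, SCI+Saline was the most scattered group, and Sham+Saline was lowest. CDTX raised the level by 1.37 in SCI mice (SE 0.29, limma adjusted p = 0.000803, 2.58-fold) and by 1.47 in sham mice (SE 0.26, limma adjusted p = 0.00014, 2.78-fold). SCI+CDTX and Sham+CDTX differed by 0.66, with a 95% interval of 0.06 to 1.26, and did not pass after adjustment (limma adjusted p = 0.0933). Il1rl1 was also the only kept member called between the saline groups, higher in SCI+Saline by 0.77 (SE 0.26, limma adjusted p = 0.0354), although these groups overlapped through SCI+Saline 3. Leaving out SCI+Saline 1, 2 or 4, or Sham+Saline 2, 3 or 4, each ended that call, with values from 0.53 to 0.75.

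Casp1 was detected on all 16 arrays and was higher with CDTX under either surgery. It read 8.55, 8.77 and 8.7 on SCI+CDTX 1, 3 and 4, 8.21 on SCI+CDTX 2, and 9.09, 8.72, 9.19 and 9.09 in Sham+CDTX. The saline arrays were lower, at 6.68, 7.03, 6 and 7.43 in SCI+Saline and 6.16, 6.09, 6.65 and 7.12 in Sham+Saline. CDTX and saline arrays did not overlap, while within each injection the SCI and sham arrays did. Caspase-1 message rose by 1.89 with CDTX in SCI mice (SE 0.27, limma adjusted p = 2.82e-05, 3.71-fold) and by 2.52 in sham mice (SE 0.25, limma adjusted p = 2.41e-07, 5.72-fold). SCI+CDTX and Sham+CDTX differed by -0.35, with a 95% interval of -0.92 to 0.22 (limma adjusted p = 0.389). The saline groups differed by 0.28 (limma adjusted p = 0.458). Thus the order was Sham+CDTX (9.02 ± 0.21, SD, n = 4), SCI+CDTX (8.67 ± 0.11, n = 3), SCI+Saline (6.78 ± 0.61, n = 4) and Sham+Saline (6.51 ± 0.48, n = 4), and only the step from SCI+CDTX to SCI+Saline passed.

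Il18, the other cytokine that caspase-1 cuts, had its highest mean in Sham+CDTX. Sham+CDTX arrays read 6.52, 6.32, 6.38 and 6.83, and SCI+CDTX 1, 3 and 4 read 5.56, 6.3 and 5.95, with SCI+CDTX 2 at 5.96. SCI+Saline arrays read 5.42, 5.45, 4.44 and 4.77, and Sham+Saline arrays 4.32, 4.75, 5.06 and 5.72. The saline groups scattered widely and overlapped, and Sham+Saline 4 lay above SCI+CDTX 1. The CDTX difference was 1.55 in sham mice (SE 0.27, limma adjusted p = 9.09e-05, 2.93-fold) and 0.92 in SCI mice (SE 0.29, limma adjusted p = 0.0148, 1.89-fold). The latter was lost without SCI+CDTX 3 (0.73, limma adjusted p = 0.0935) and without SCI+Saline 3 (0.73, limma adjusted p = 0.0535). It was also lost without the detection filter (0.92, limma adjusted p = 0.0504) and with the score in the fit (0.73, limma adjusted p = 0.0707). SCI+CDTX was also higher than Sham+Saline by 0.97 (limma adjusted p = 0.00914). That call was lost without SCI+CDTX 3 (0.78, limma adjusted p = 0.063) and with the score in the fit (0.72, limma adjusted p = 0.102). Between the CDTX groups the difference was -0.58 (limma adjusted p = 0.15), although the arrays did not overlap. Its 95% interval was -1.18 to 0.03.

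For the other kept probes, the authors' deposited table holds these group means in the order SCI+CDTX, SCI+Saline, then the sham groups with CDTX and with saline: Il1r2 62.6, 7.6, 17.3 and 6.1, and Il1rl1 95.4, 17.5, 54.1 and 0.9. In the authors' deposited table the means of Casp1 were 433.1, 84.5, 541.8 and 59.2, and those of Il18 were 58.5, 12.8, 91.8 and 12.6. Its p-values between SCI+CDTX and Sham+CDTX, from the authors' deposited table, were 3e-05 for Il1rn, 8e-05 for Il1r2, 0.09877 for Il1rl1, 0.13676 for Il18 and 0.17155 for Casp1. At 0.05 these fall on the same side as the limma calls for the 5 genes, and Il1b is the member on which the sources differ.

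**Figure D2:**
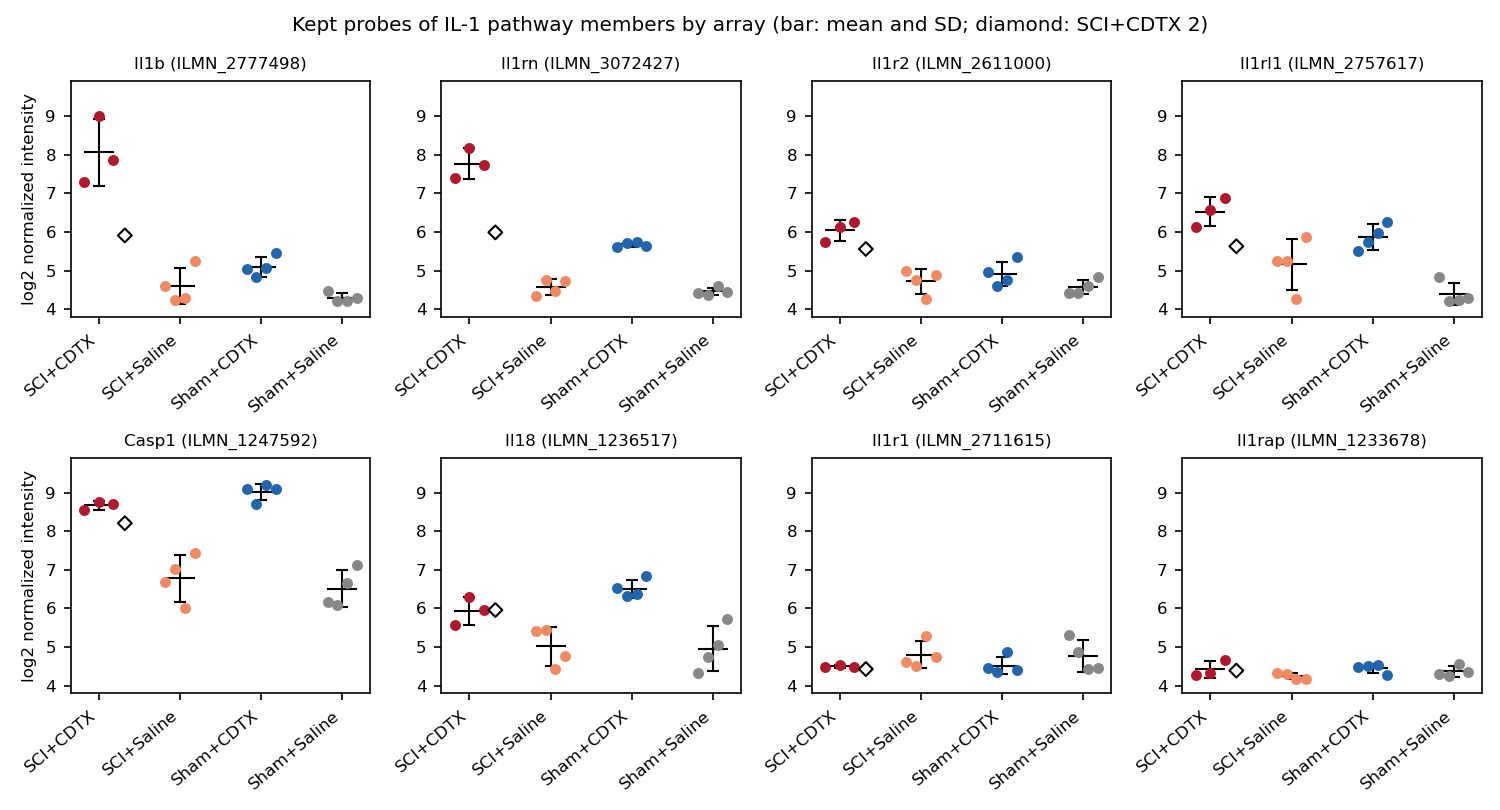
Log2 normalized intensity of the 8 kept probes by group, 1 filled point per array of the 15 tested, with the mean and SD as bars and SCI+CDTX 2, taken from a normalization of all 16 arrays, as an open diamond. Il1b, Il1rn and Il1r2 are highest in SCI+CDTX, Casp1 and Il18 have their highest mean in Sham+CDTX, and Il1r1 and Il1rap lie between 4.18 and 5.32 in every group.

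Counted over the 8 kept members, CDTX in SCI mice called 6 higher and 0 lower, beside 20.4% of all 14763 kept probes called higher and 22.5% called lower. In sham mice it called 5 higher and 0 lower, where 23.1% of all probes were higher and 25.8% lower. SCI+CDTX against Sham+CDTX called 3 higher and 0 lower (14.9% of all probes higher and 14.9% lower), and SCI+Saline against Sham+Saline 1 higher and 0 lower (14.8% of all probes higher and 14.6% lower). In SCI+CDTX against Sham+Saline 6 were higher and 0 lower (23% and 23.6% of all probes). In SCI+Saline against Sham+CDTX 0 were higher and 4 lower (24.7% and 23.2% of all probes): Il1rn, Il1rl1, Il18 and Casp1. The Il1rl1 call there, a difference of -0.71 between overlapping groups, was lost without SCI+Saline 3 (-0.41), Sham+CDTX 3 (-0.66) or Sham+CDTX 4 (-0.57). That call was also lost with all 16 arrays, with and without the score, and without background correction. Separate normalization of each slide, no detection filter, offset 50 and only the groups compared lost it as well. The median difference of the 8 kept members was 1.35, 1.01, 0.32 and 0.13 in the first 4 of these comparisons, against -0.05, -0.04, 0.01 and -0.01 over all kept probes. Several of these comparisons share groups, so their values are not independent of each other.

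**Figure D3:**
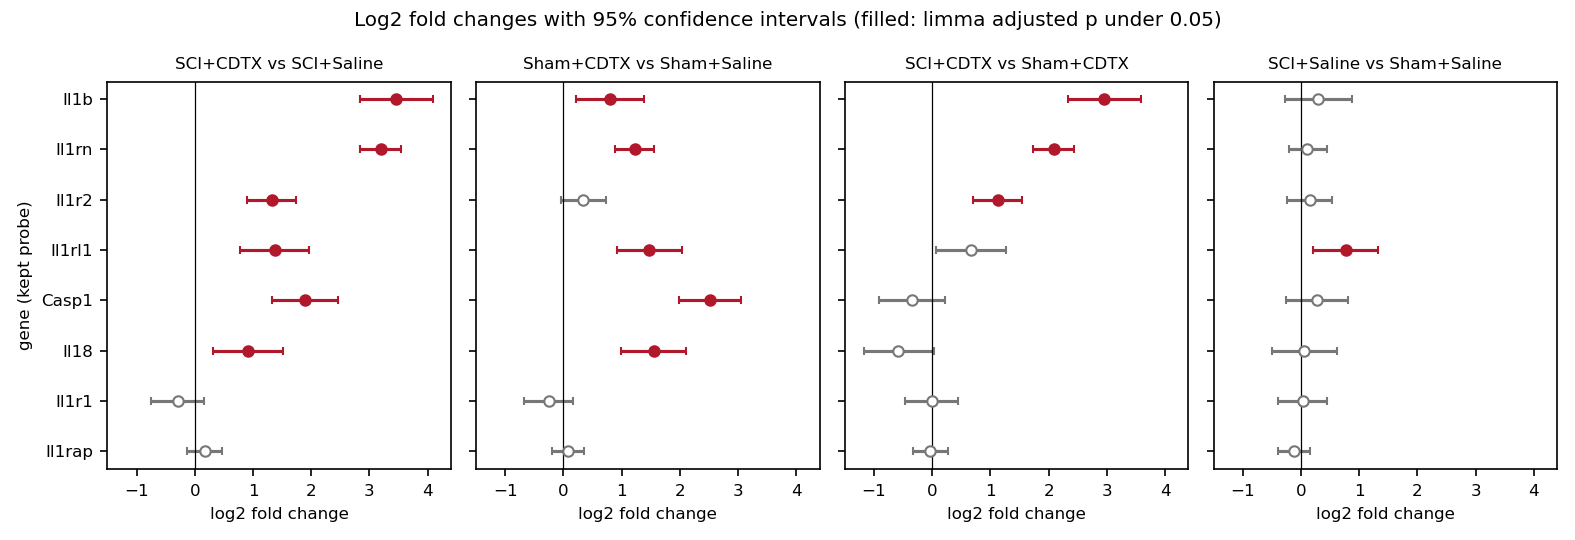
Log2 fold change of each kept probe with its 95% confidence interval in 4 comparisons, filled where the limma adjusted p is under 0.05. CDTX against saline calls 6 members in SCI mice and 5 in sham mice; 3 members (Il1b, Il1rn and Il1r2) are called between SCI+CDTX and Sham+CDTX, and Il1rl1 alone between the saline groups.

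The interaction, the CDTX effect in SCI mice minus that in sham mice, tests whether the effect of CDTX depended on surgery. It was called positive for 3 of the 8 kept members and negative for 0, beside 12% and 11.6% of all probes. Il1b had 2.66 (SE 0.41, limma adjusted p = 0.000152), Il1rn 1.97 (SE 0.23, limma adjusted p = 1.52e-05) and Il1r2 0.98 (SE 0.27, limma adjusted p = 0.014). With all 16 arrays Il1r2 missed the threshold (0.86, limma adjusted p = 0.063). The interaction was -0.63 for Casp1 (limma adjusted p = 0.25), -0.63 for Il18 (limma adjusted p = 0.27) and -0.11 for Il1rl1 (limma adjusted p = 0.881), and these intervals reached 0.16, 0.19 and 0.71 at their upper end.

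With the probe difference score as a covariate over 16 arrays, none of the 8 members was called between SCI+CDTX and Sham+CDTX or in the interaction. Il1b changed from 2.96 to 0.77 (SE 0.56, limma adjusted p = 0.606), Il1rn from 2.09 to 0.34 (SE 0.38, limma adjusted p = 0.774) and Il1r2 from 1.13 to 0.79 (SE 0.35, limma adjusted p = 0.311). The interaction became 0.23 for Il1b (limma adjusted p = 0.939), 0.04 for Il1rn (limma adjusted p = 0.988) and 0.6 for Il1r2 (limma adjusted p = 0.634). Calls over all probes fell in the same fit from 4393 to 262 between SCI+CDTX and Sham+CDTX and from 3483 to 43 in the interaction. The CDTX effect in sham mice moved the other way for the ligand and its antagonist, to 3.45 for Il1b (SE 0.8, limma adjusted p = 0.00712) and 3.31 for Il1rn (SE 0.54, limma adjusted p = 0.00132). Casp1 stayed called there, at 2.43 (limma adjusted p = 0.0153), and Il18 did not, at 0.86 (limma adjusted p = 0.397). The differences of SCI+CDTX from Sham+CDTX thus depended on whether this score was in the fit, and what the score measures was not tested. With all 16 arrays and no score, the differences were 2.43 for Il1b, 1.64 for Il1rn and 1.01 for Il1r2, all called.

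**Figure D4:**
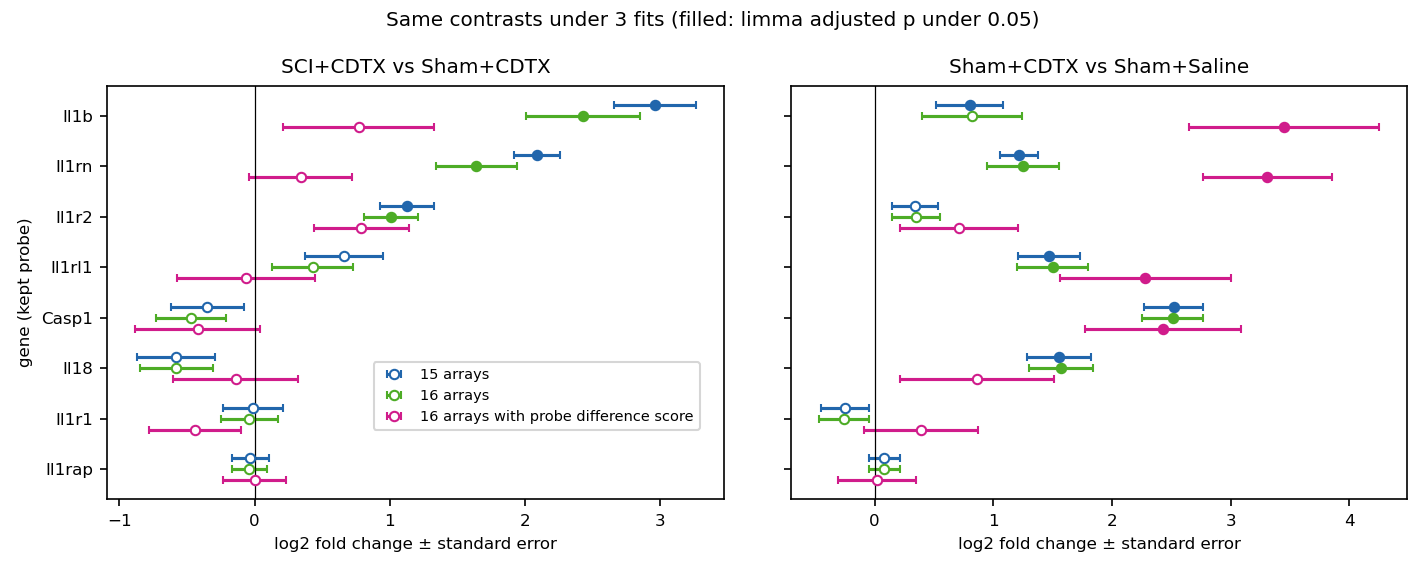
Log2 fold change ± SE of the 8 kept probes in SCI+CDTX vs Sham+CDTX and Sham+CDTX vs Sham+Saline under 3 fits: 15 arrays, 16 arrays, and 16 arrays with the probe difference score; filled points have a limma adjusted p under 0.05. With the score, Il1b falls to 0.77 in the first contrast and rises to 3.45 in the second, while Casp1 stays near 2.43 to 2.52 in the second.

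Among other genes of the family, Il33, the ligand of the Il1rl1 receptor, rose with CDTX by 1.02 in SCI mice (limma adjusted p = 0.00115) and by 1.48 in sham mice (limma adjusted p = 9.61e-06). Its group means were 7.21 in SCI+CDTX, 7.27 in Sham+CDTX, 6.19 in SCI+Saline and 5.79 in Sham+Saline, and the CDTX groups differed by -0.06 (SE 0.22, limma adjusted p = 0.887). Il18bp, the secreted binding protein that neutralises interleukin 18, fell with CDTX by 0.56 in SCI mice (limma adjusted p = 0.0321) and by 0.9 in sham mice (limma adjusted p = 0.00056). Of 18 family genes listed, 6 had a kept probe. CDTX raised 2 and lowered 1 of them in SCI mice, beside 20.4% of all probes higher and 22.5% lower. It raised 1 and lowered 1 in sham mice, beside 23.1% and 25.8%. With 6 genes, these counts are not read as a result about the family. The gene that rose in SCI mice beside Il33 was Sigirr, an inhibitory receptor of the family, by 0.41 (limma adjusted p = 0.0293), a call lost with all 16 arrays (0.36). That of Il18bp in SCI mice was lost under median scaling (-0.33) and with the score (-0.46, limma adjusted p = 0.101). With the score in the fit, the sham differences were 0.6 for Il33 (limma adjusted p = 0.423) and -0.38 for Il18bp (limma adjusted p = 0.624).

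Of 11 inflammasome and pyroptosis genes with a kept probe, 8 rose and 1 fell with CDTX in SCI mice, where 20.4% of all probes were higher and 22.5% lower. In sham mice 8 rose and 2 fell, where 23.1% were higher and 25.8% lower. With the score in the fit, 5 rose and 0 fell there, where 3094 of all probes were called, 54.1% of them higher. Their median differences were 0.78 in SCI mice and 1.07 in sham mice. Casp8, an initiator caspase, rose by 2.05 (limma adjusted p = 6.92e-07) and 2.01 (limma adjusted p = 5.39e-08) in the 2 settings. Gsdmd, the pore-forming protein that caspase-1 cuts, rose by 2.02 in SCI mice (limma adjusted p = 3.71e-06) and by 1.1 in sham mice (limma adjusted p = 0.000343). Panx1, a membrane channel, fell with CDTX by 0.96 under SCI and by 0.81 under sham surgery, but was higher after SCI than after sham surgery by 1.32 with CDTX (limma adjusted p = 0.000393) and by 1.47 with saline (limma adjusted p = 6.8e-05). Under median scaling its difference with CDTX in sham mice was -0.00013, and with the score its sham difference (-0.54) and that between the CDTX groups (1.09, limma adjusted p = 0.186) were not called. Txnip, an inhibitor of thioredoxin, fell with CDTX in sham mice by 1.54 (limma adjusted p = 6.19e-06). Serpinb1a, a protease inhibitor, rose by 1.87 in sham mice (limma adjusted p = 5.94e-07) and by 0.78 in SCI mice (limma adjusted p = 0.00747). With the score neither was called in sham mice, at -0.3 for Txnip (limma adjusted p = 0.723) and 1.06 for Serpinb1a (limma adjusted p = 0.136). Between SCI+CDTX and Sham+CDTX 4 rose and 1 fell, beside 14.9% of all probes higher and 14.9% lower. The gene that fell was Naip5, a sensor of bacterial flagellin, by 0.52 (limma adjusted p = 0.0192). With the score in the fit, 0 rose and 0 fell in that contrast, where 262 of all probes were called.

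The signalling chain below the receptor was mixed. Of 35 genes with a kept probe, 12 rose and 8 fell with CDTX in SCI mice, and 12 rose and 7 fell in sham mice, with medians of -0.0011 and 0.14. As shares of 35, the higher counts lie above and the lower ones near or under the 20.4% higher and 22.5% lower of all probes in SCI mice and the 23.1% and 25.8% in sham mice. With the score in the fit, 4 rose and 7 fell in sham mice, where 3094 of all probes were called, 54.1% of them higher. Myd88, the adaptor of the receptor, rose by 1.76 in SCI mice (limma adjusted p = 1.7e-06) and by 1.05 in sham mice (limma adjusted p = 5.56e-05). Fos, a transcription factor subunit of AP-1, rose by 2.07 in SCI mice (limma adjusted p = 0.000497). Mapk8, a stress kinase, fell there by 0.89 (limma adjusted p = 0.00292). Their sham means with CDTX and saline were 8.61 and 7.85 for Fos and 6.77 and 7.51 for Mapk8. Nfkbiz and Nfkbie, members of the inhibitor of NF-kappaB family, rose in sham mice by 1.17 and 1.15, and with the score they were at 1.41 (limma adjusted p = 0.067) and 1.04 (limma adjusted p = 0.118). Their SCI means with CDTX and saline were 6.64 and 5.61 for Nfkbiz and 5.81 and 4.93 for Nfkbie. Nfkb2, an NF-kappaB subunit, was higher after SCI by 1.89 in saline muscle (limma adjusted p = 2.75e-07) and by 1.32 in CDTX muscle (limma adjusted p = 4.36e-05). With the score the saline difference of Nfkb2 was 2.02 (limma adjusted p = 6.19e-08) and the CDTX one 0.35 (limma adjusted p = 0.646), no longer called. Map2k6, a kinase that activates p38, was lower after SCI in saline muscle by 1.87 (limma adjusted p = 6.97e-09). These counts follow the scaling. Under median scaling the median of all probes in the sham comparison was 0.32, against -0.04 under quantile normalization. With that scaling 26 rose and 0 fell in sham mice, where 7877 of all probes were called, 85.1% of them higher. Under the same scaling 14 rose and 3 fell between the saline groups, where 5132 probes were called, 86.4% of them higher. Quantile normalization gave 7 rising and 7 falling there, beside 14.8% of all probes higher and 14.6% lower. The sign of Tab1 in sham mice (-1.01) and of Map2k4 between the CDTX groups (-1.33) turned with the score in the fit, to 0.73 and 0.17, neither of them called.

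Among genes known to respond to interleukin 1, most calls were upward, in SCI+CDTX muscle and in the other contrasts given here. Of 21 with a kept probe, 11 rose and 0 fell against SCI+Saline (median 1.09), and 10 rose and 1 fell against Sham+CDTX (median 0.68), beside 20.4% and 14.9% of all probes higher. Of all probes, 22.5% and 14.9% were lower. In sham mice 9 rose and 1 fell with CDTX, beside 23.1% and 25.8% of all probes. Between the saline groups 7 rose and 1 fell with SCI, beside 14.8% and 14.6%. Against SCI+Saline the acute phase genes Saa3 and Hp had the largest differences of the list, whereas against Sham+CDTX Lcn2 had it. Saa3 was higher by 3.38 against SCI+Saline (limma adjusted p = 2.27e-05) and 2.32 against Sham+CDTX (limma adjusted p = 0.00119), and Hp, which encodes haptoglobin, by 2.99 against SCI+Saline (limma adjusted p = 1.84e-06). Lcn2, a lipocalin that binds bacterial siderophores, was higher by 2.54 against Sham+CDTX (limma adjusted p = 0.00306) and by 2.64 in SCI+Saline against Sham+Saline (limma adjusted p = 0.00122). Saa3 and Hp also rose with CDTX in sham mice, by 2.67 and 1.54. The monocyte chemokines Ccl7 and Ccl2 rose with CDTX in sham mice by 4.5 and 3.55, and in SCI mice by 2.41 and 2.87. Vcam1, an endothelial adhesion molecule, was lower in SCI+CDTX than in Sham+CDTX by 0.88 (-0.65 with the score, limma adjusted p = 0.477), and Ptx3, a secreted pattern recognition protein, was lower in SCI+Saline than in Sham+Saline by 1.52. With the score in the fit 1 of the 21 rose between SCI+CDTX and Sham+CDTX, Lcn2, at 3.93 (limma adjusted p = 0.0391), and Saa3 was at 1.18 (limma adjusted p = 0.596). These 4 lists were written with earlier results of these data known, and their counts are descriptions.

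**Figure D5:**
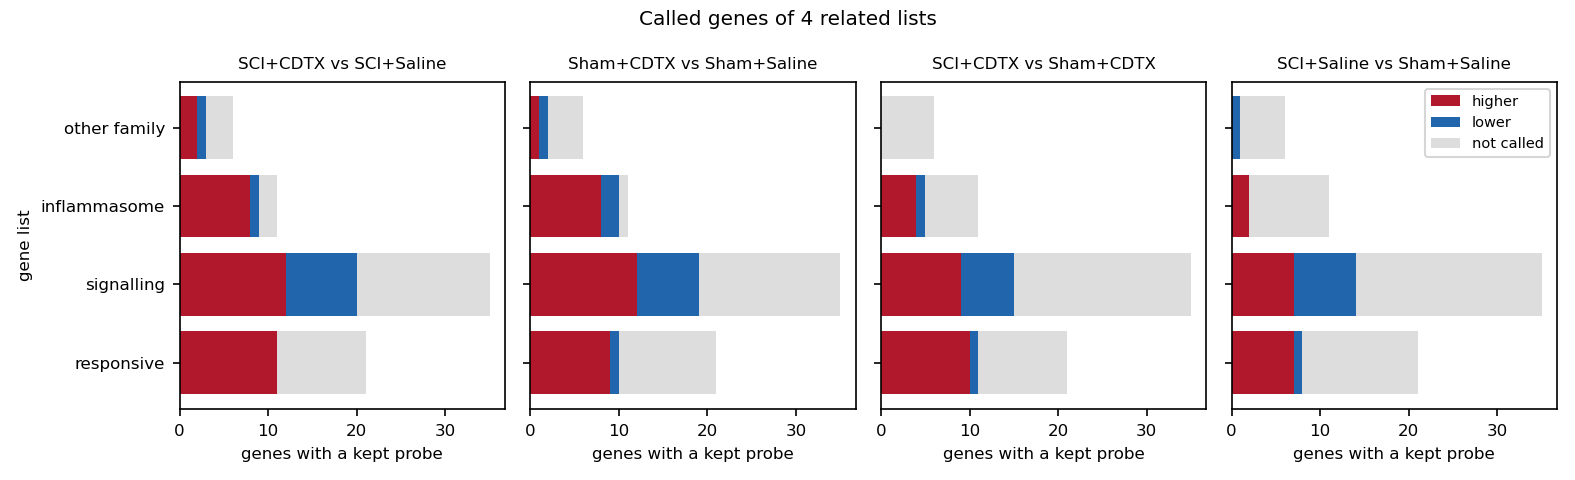
Number of genes called higher, lower or not called in 4 comparisons for the 4 lists of related genes, counted over genes with a kept probe (6, 11, 35 and 21). The responsive genes have 11 higher and 0 lower in SCI+CDTX against SCI+Saline, and 10 higher and 1 lower against Sham+CDTX.

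Levels of immune cell markers are given beside the members, since whole muscle holds these cells. Of all kept probes, 20.4% rose with CDTX under SCI and 23.1% under sham surgery. For monocytes and macrophages, 12 of 14 listed genes had a kept probe. Of the 12, 11 rose with CDTX under SCI and 11 under sham surgery. Their summed linear intensity was 14700 to 21400 in SCI+CDTX (11600 on SCI+CDTX 2), 18300 to 21300 in Sham+CDTX, 2150 to 5800 in SCI+Saline and 2270 to 3760 in Sham+Saline; Ccr2 was detected on no array. Between SCI+CDTX and Sham+CDTX, where Il1b, Il1rn and Il1r2 differed, 3 of the 12 were higher and 2 lower, with a median difference of -0.18. Of all probes, 14.9% were higher and 14.9% lower in that contrast. Neutrophil markers, 11 of 15 with a kept probe, summed to 3730 to 6290 in SCI+CDTX (2510 on SCI+CDTX 2) and 1030 to 1530 in Sham+CDTX. The sums were far more scattered with saline, 2210 to 14000 after SCI and 269 to 12100 after sham surgery, and Mmp8 was detected on no array. Of the 11, Hdc (1.25) and Clec4e (0.87) were called higher in SCI+CDTX than in Sham+CDTX, a count near the 14.9% of all probes. The abundant S100a8 (3.31, limma adjusted p = 0.0553) and S100a9 (3.49, limma adjusted p = 0.0661) were not called. All 5 kept T and B lymphocyte markers of 10 listed were higher in SCI+CDTX than in Sham+CDTX, beside 14.9% of all probes. Among the 5 was Cd3d, by 1.14 (limma adjusted p = 4.15e-05). Its means were 5.52 in SCI+CDTX and 4.24, 4.38 and 4.37 in SCI+Saline, Sham+CDTX and Sham+Saline. Such dim probes could pass the detection filter through SCI+CDTX alone, so the count of lymphocyte markers is not read as a result. The sum of the 5 was 195 to 310 in SCI+CDTX (156 on SCI+CDTX 2) and 109 to 142 in Sham+CDTX. With saline it was 102 to 148 in SCI+Saline and 98.3 to 186 in Sham+Saline. Cd8a was detected on no array. With the score in the fit, 0 monocyte and macrophage, 0 neutrophil and 0 lymphocyte markers were called in either direction between SCI+CDTX and Sham+CDTX. The part of these cells in the differences of Il1b, Il1rn and Il1r2 was not tested.

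The genes most like each member across the 16 arrays, by Pearson r of log2 values, were named as a description; arrays share group, slide and normalization, so r gives no test. Il1b was nearest to Ltb (0.982), Dmkn (0.979) and Clec4e (0.973), and among the members to Il1rn (0.957). Il1rn was nearest to Nsf (0.961), Csf1 (0.959) and Ptbp3 (0.958), Il1r2 to Cd163 (0.95), Dmkn (0.927) and Ndc1 (0.925), and Il1rl1 to Ccl2 (0.95), Ms4a6b (0.947) and Clec4n (0.946). Casp1 was nearest to Rab8b (0.99), Lat2 (0.989) and Inpp5d (0.985), and Il18 to Cetn4 (0.959), Ly6a (0.955) and Cenpl (0.953), with r of 0.904 between Casp1 and Il18. For the dim probes, Il1r1 was nearest to Xkr7 (0.853), Mmp24 (0.852) and Capn8 (0.828), and Il1rap to Sgtb (0.943) and Slc32a1 (0.874).

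Because Il1b carried the largest difference of the members, its promoter is shown, the 250 bases upstream of the start in RefSeq's GRCm38.p6 annotation at chr2:129371140-129371389 on the minus strand. Capitals mark a match to TTNNGNAA, a C/EBP-type pattern, and to TATAAA.
Il1b: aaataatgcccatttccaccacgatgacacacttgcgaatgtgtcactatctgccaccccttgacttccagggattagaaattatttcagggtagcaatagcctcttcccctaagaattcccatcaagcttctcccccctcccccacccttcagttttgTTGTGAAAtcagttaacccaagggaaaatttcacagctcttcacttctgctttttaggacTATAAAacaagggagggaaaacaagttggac
Such windows were available for all 10 genes, 15 in all, and the same patterns were counted in 32851 RefSeq windows. TATAAA, on the gene's strand only, was found in 7.59% of all windows and in 2 of the 15: that of Il1a, 32 bases upstream of the start, and that of Il1b, 31 bases upstream. On either strand, TTNNGNAA was in 36.8% of all windows and 10 of the 15, an NF-kappaB-type pattern of GGG and CC with any 5 bases between them in 45.8% and 6 of the 15, and TGACTCA, an AP-1 site, in 4.46% and 2 of the 15. Windows of a gene with several starts can overlap, and these letter matches were not tested for binding.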

How the data were processed

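Whole muscle RNA of 16 samples was hybridised to Illumina expression BeadChips. The authors deposited the raw mean intensity of 25697 probes per array, without normalization or background subtraction per the file headers, with a detection p-value and the number of beads. The submitters' processing notes name GenomeStudio 2011.1. A deposited final table gives the authors' group mean intensity after average normalization and background subtraction and a p-value against SCI+CDTX, which may or may not be corrected for multiple tests. The authors' normalized table of all 16 arrays was not used. Of the raw data, the intensities, detection p-values and bead numbers of all 16 arrays were read.

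Intensities of 15 arrays (SCI+CDTX 2 left out, as the labels state) were background-corrected with neqc from the detection p-values (offset 16, which understates fold changes of dim probes), quantile normalized and set to log2 with limma 3.58.1 in R 4.3.3. The filter kept 14763 probes, those detected (p under 0.05) on 3 or more arrays. A linear model of 4 group means gave 6 pairwise comparisons and the interaction, with calls made where the p-value adjusted after Benjamini and Hochberg over all kept probes was under 0.05. Fold changes are differences of mean log2 intensity. The procedure was tested on simulated data. Named were every member probe, the 2 highest and 2 lowest called genes of each related list in 4 comparisons, and the 3 genes most alike in pattern, of which 1 is not reported here; gene symbols are those of the table, updated by Entrez identifier. Other names given after their values were seen are S100a8, S100a9, Hdc, Clec4e and Cd3d. For the probe difference score, the difference between the 2 brightest kept probes of each gene was centred over arrays and its first principal component taken (33.1% of the variance).

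The members and gene lists (other family genes, inflammasome, receptor signalling, responsive genes, and markers of neutrophils, monocytes and macrophages, mast cells, lymphocytes, muscle fibre, endothelium and fibroadipogenic progenitors) were chosen with earlier results of these data known. Replicate numbers only name samples: of 21 pairs of arrays with the same number in different groups, 3 had deviations correlated above 0.1. Alternatives were all 16 arrays, with and without the score, median scaling, no background correction, separate normalization of each slide, other detection filters, offset 50, only the groups compared, a replicate block and each array left out. No array duplicated another. Sequences are those of the deposited annotation and of RefSeq.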

Additional observations from a re-analysis of the deposited data

Results flagged for a closer look

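The CDTX effect differed between surgeries, by the interaction term over 15 arrays, for Il1b (2.66), Il1rn (1.97) and Il1r2 (0.98), each larger in SCI mice. With all 16 arrays the values were 2.12, 1.52 and 0.86, the last no longer called. With all 16 arrays and the score of probe differences as a covariate they were 0.23, 0.04 and 0.6, with no call. In 32 tests for a stray array, covering the 8 kept probes in 4 groups with all 16 arrays normalized together, 1 array stood apart: Il1rl1 read 4.85 on Sham+Saline 1, against 4.22 to 4.31 on the other arrays of its group, and the gap to its nearest neighbour was 0.856 of the range. Chance alone marks about 1 group in 20.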

How the results depend on the processing

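No member's call changed sign under any alternative that was run. The count of members called in SCI+Saline against Sham+Saline was 1 and became 0 with all 16 arrays, median scaling, no background correction, offset 50 and only the groups compared; with each array left out in turn it ran from 0 to 1. Between SCI+CDTX and Sham+CDTX the count was 3, 4 under median scaling (Il18 added), 4 with no detection filter (a probe beyond the 8 added), 5 with only the groups compared (Il1rl1 and Il18 added) and 0 with the score; the interaction count was 3 and 0 with the score. Leaving out arrays moved the other counts between 5 and 6 for CDTX under SCI, 4 and 5 for CDTX under sham surgery, 3 and 4 between the CDTX groups, 5 and 6 for SCI+CDTX against Sham+Saline, 3 and 5 for SCI+Saline against Sham+CDTX, and left the interaction at 3. A fit with the replicate number as a block gave the same counts: 6 and 5 for CDTX under SCI and sham surgery, 3 and 1 for SCI against sham with CDTX and with saline, 6 and 4 for the remaining pairs and 3 in the interaction. Among single probes, 29 calls were lost and 5 gained over the other alternatives, and 13 were lost and 2 gained on leaving out an array; the causes were not tested. Over all probes, the counts with all 16 arrays and no score were 2613 between the CDTX groups (4393 with 15) and 1532 in the interaction (3483 with 15); with the score, 3094 probes were called for CDTX in sham mice (7219) and 3778 between SCI+Saline and Sham+CDTX (7064). Median scaling moved the share of higher calls from 47.6% to 64.9% for CDTX in SCI mice, from 47.3% to 85.1% in sham mice, from 50.3% to 86.4% between the saline groups, from 49.4% to 82.6% for SCI+CDTX against Sham+Saline, from 51.5% to 35.1% for SCI+Saline against Sham+CDTX and from 51% to 17.7% in the interaction. Brightness limits the members: 11 of 19 probes did not clear the detection filter, so Il1a and Nlrp3 have no test.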

Other observations

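Markers of the remaining cell types were summed in the same way as those of immune cells. Fibroadipogenic progenitor markers (8 of 8 genes with a kept probe) summed to 20700 to 24200 in Sham+CDTX and 12400 to 15600 in SCI+CDTX, with SCI+CDTX 2 at 19900, nearer to Sham+CDTX than to its own group. They were 8400 to 13500 in SCI+Saline and 7820 to 16300 in Sham+Saline. Endothelial markers (6 of 6) were 1360 to 1720 in SCI+CDTX and 1330 to 1670 in Sham+Saline, and lower in Sham+CDTX (765 to 837), SCI+Saline (787 to 1060) and SCI+CDTX 2 (930). Mast cell markers (6 of 8, with Ms4a2 on no array) were 538 to 640 in SCI+CDTX, 438 on SCI+CDTX 2, 537 to 632 in Sham+CDTX, 264 to 515 in SCI+Saline and 326 to 583 in Sham+Saline.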
